A study of Homo sapiens with 16 samples.

Results

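The data described here are 4 of the 16 RNA libraries of the study: 2 from cells with wild-type receptors treated with H11 and 2 from untreated cells with wild-type receptors, chosen by their genotype and treatment labels alone. H11 is labelled as a high-affinity form of interferon lambda 3 (IFNL3). All cells were HEK293, a human embryonic kidney line, grown in Free-style medium. Each of the 8 groups of the study has 2 libraries, and the groups cross the wild-type or optimized receptor genotype with no treatment, interferon omega (IFNw), IFNL3 or H11. Per the labels' protocols a ligand was given at 100 nM for 15 min, and a time of 24 hr stands among the sample labels. The labels do not state how the receptors of either genotype were placed in the cells. They call the 2 libraries of a group biological replicates without naming separate cultures, so p-values measure only the spread between libraries, which may be technical. The study's title places the series in a comparison of Janus kinase geometry in type I and type III interferon receptors.

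Interferon lambda is a type III interferon. It binds the IFNLR1 chain together with IL10RB, and the kinases JAK1 and TYK2 on these chains phosphorylate STAT proteins, which join IRF9 to form the transcription factor ISGF3. ISGF3 enters the nucleus and binds interferon-stimulated response elements in the promoters of antiviral genes. Type I interferons such as interferon omega reach the same factor through IFNAR1 and IFNAR2. Type III receptors are known mainly from epithelial cells, which use them for defence at body surfaces.

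The untreated libraries held 8734666 and 9559366 reads and the H11 libraries 9150199 and 9499486. Values below are reads per 1000000 reads of the library (CPM) after scaling for library composition, and each pair of values is given as replicate 1 and replicate 2. Each gene was counted at a single target, whose identifier begins with AMPL and whose position and length are not given. Transcript length below therefore need not be the length counted. Because levels of different genes depend on the part of each transcript that was counted, comparisons are made within a gene. In bulk RNA, a lower level in every cell cannot be told apart from fewer cells holding the transcript. The libraries of wild-type cells given H11 or IFNL3 stood apart from the others on the first principal component of the transcriptome, though not on the second. On the first principal component of all 16 libraries, which held 46.19% of the variance, the H11 pair lay at −63.3 and −61.5 and the IFNL3 pair at −62.8 and −63.8. The untreated pair lay at −3.2 and −4.4, and the interferon omega pair at 43.2 and 42.6. On the second component, with 23.28% of the variance, the H11 pair lay at −21.0 and −19.2, near the interferon omega pair at −16.1 and −15.5. The untreated pair lay at 45.2 and 46.0. Transcript length moved with the separation on the first component. Each gene's deviation from its mean over all libraries was correlated with length, across 12131 genes that share these libraries. Spearman's rho was 0.421 and 0.393 in the H11 libraries, 0.398 and 0.404 in the wild-type IFNL3 libraries and 0.138 and 0.161 in the untreated libraries. It was −0.439 in both interferon omega libraries. H11 libraries gave 18.0% to 18.5% of their reads to their 50 most abundant genes, wild-type IFNL3 libraries 17.7% to 18.1%, and untreated libraries 25.4% to 25.6%. Values from a second fit, with length included, are given below for some results and named as such.

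Promoter sequences were compared to see what the interferon genes that rose with H11 share beyond their response. Windows from 250 bases before to 50 bases after a RefSeq start site (GRCh38.p14) were searched on both strands for the core of the interferon-stimulated response element, which is GAAA, any 2 bases and GAAA again. A window was found for 59 of the 76 genes of the interferon-response lists that rose with H11. The motif was in 39 of these genes, 66.1%, beside 3.92% of all tested genes with a window. By window, the motif was in 56.6% of those of raised interferon genes (43 of 76) and in 3.57% of the 35116 windows searched, which did not cover every chromosome. It was in 4.78% of windows of all genes that rose, in 2.33% of windows of genes that fell and in 2.57% of windows of tested genes not called. Interferon-list genes that did not rise had it in 30.2% of windows (13 of 43). Genes outside these lists that rose past 2-fold had it in 3.53%. In 33 of the 43 windows the motif nearest the 5′ end began within 150 bases before the start site. A motif match is a description of the sequence and not a measured binding site. Among the raised interferon genes that had the motif in a window and 5 CPM or more with H11, the sites of the 10 with the largest fold changes are printed below with 10 bases on each side, 5′ to 3′ on the strand of the gene, with the matches to this motif or to its reverse complement (TTTC, any 2 bases, TTTC) in capitals.
IFIT3, chr10:89332425-89332454, plus strand: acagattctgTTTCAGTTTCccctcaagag
IFI44, chr1:78649761-78649790, plus strand: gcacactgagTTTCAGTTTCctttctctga
RSAD2, chr2:6877622-6877651, plus strand: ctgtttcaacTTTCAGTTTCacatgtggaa
SAMD9, chr7:93118096-93118125, minus strand: tctgagaaatGAAACTGAAAccaaacctat
IFIT1, chr10:89392497-89392526, plus strand: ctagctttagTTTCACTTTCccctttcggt
IFIH1, chr2:162318824-162318853, minus strand: gagaattcgcTTTCCTTTTCTGTTTCccgc
IFI27, chr14:94110618-94110647, plus strand: atgtctgcagTTTCGGTTTCctggaaaatg
OAS3, chr12:112938321-112938350, plus strand: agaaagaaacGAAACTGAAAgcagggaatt
ISG15, chr1:1013374-1013403, plus strand: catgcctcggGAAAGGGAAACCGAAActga
DDX60, chr4:168318821-168318850, minus strand: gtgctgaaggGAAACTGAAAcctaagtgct

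The ISG15 site holds 2 overlapping matches, and the IFIH1 site likewise shows more than 1 in a row. DTX3L and PARP9, which encode partners in one ubiquitin ligase and ADP-ribosylation complex and start on opposite strands, share a site of the same form:
DTX3L, chr3:122564322-122564351, plus strand: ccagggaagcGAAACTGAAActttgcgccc
The 250 bases before the start site are given for ISG15 and IFIT3, the genes used below to show the contrast between interferon types, with the motif matches in capitals.
ISG15 promoter, chr1:1013247-1013496, plus strand: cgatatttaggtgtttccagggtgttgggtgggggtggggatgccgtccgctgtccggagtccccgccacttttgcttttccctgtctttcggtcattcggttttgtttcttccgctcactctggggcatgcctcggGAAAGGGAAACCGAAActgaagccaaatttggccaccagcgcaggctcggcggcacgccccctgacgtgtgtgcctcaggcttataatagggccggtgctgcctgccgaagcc
IFIT3 promoter, chr10:89332279-89332528, plus strand: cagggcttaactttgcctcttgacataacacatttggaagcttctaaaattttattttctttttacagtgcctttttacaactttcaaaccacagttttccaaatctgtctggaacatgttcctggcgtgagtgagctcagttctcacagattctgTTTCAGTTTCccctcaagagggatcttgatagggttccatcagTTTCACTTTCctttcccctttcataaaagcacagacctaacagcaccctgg
OAS1, IRF9 and CMPK2 rose with H11, and their windows did not contain these letters. For OAS2, IFIT2, DDX58, IRF7, DHX58 and USP18 no window was matched.

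H11 raised the interferon programme of wild-type receptor cells broadly. Of 144 genes in the lists that describe the interferon response, 122 had enough reads to be tested, and 76 of these rose and 6 fell, with a median log2 fold change of 2.16, or 1.85 with genes on at most 3 untreated reads set at the lower bound of their ratio. Across all 12704 genes tested, 38.8% were called at an adjusted p under 0.05 by edgeR's quasi-likelihood test, 2317 higher (18.2%) and 2615 lower (20.6%), with a median log2 fold change of −0.02. Called genes past 2-fold made up 14.8% of all genes, 802 higher (6.31%) and 1083 lower (8.52%). With one library of the 4 left out, between 1548 and 1607 genes rose and between 1875 and 1992 fell. Levels of 9209 genes (72.5%) did not overlap between the groups.

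**Figure D1:**
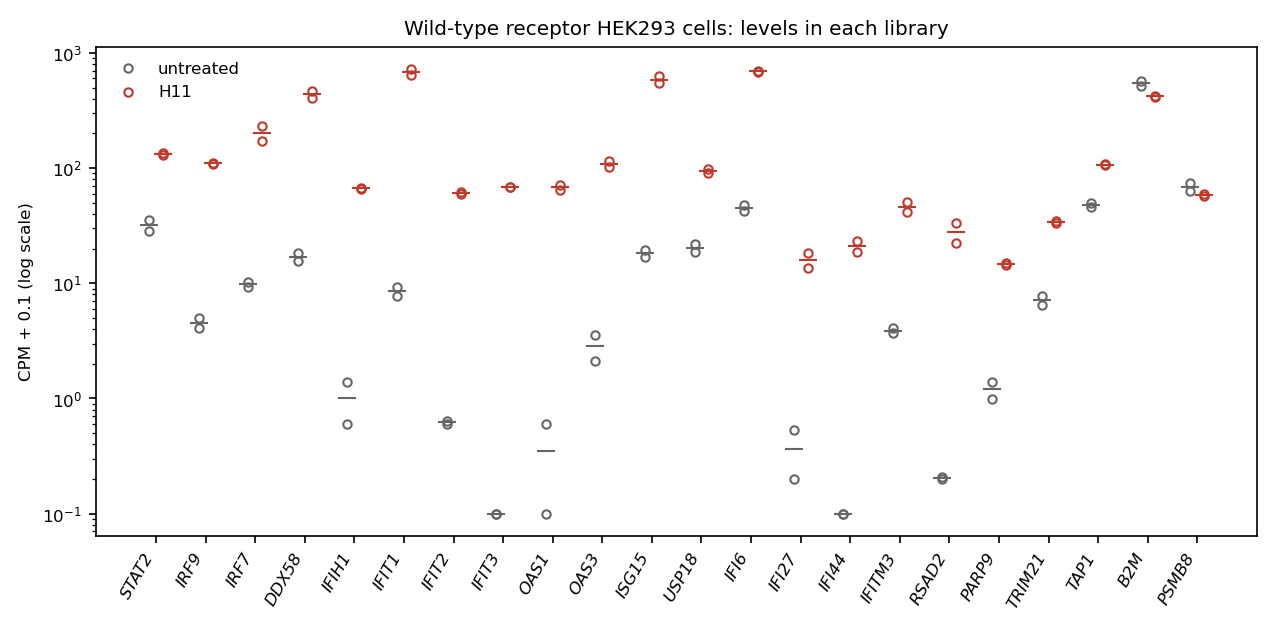
Level of interferon-related genes in each wild-type receptor library, as CPM plus 0.1 on a log axis, with circles for libraries, short bars for group means, grey for untreated and red for H11. IRF9 rises from 4.88 and 3.99 CPM to 108 and 112, IFIT3 goes from no read to 68.8 CPM in both H11 libraries, and B2M and PSMB8 have their H11 circles at or below their untreated circles.

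The receptor and its kinases were present at low to moderate levels and for the most part were not called. The lambda-binding chain IFNLR1, listed under its older symbol IL28RA, had 2.50 and 2.49 CPM without ligand and 1.39 and 3.39 CPM with H11. Its groups overlapped, and the log2 fold change was −0.05. The shared chain IL10RB, which also serves interleukin 10, went from 22.6 and 20.6 CPM to 9.65 and 11.9 CPM. It fell by 1.00 on the log2 scale (SE 0.17, adjusted p 0.000202). JAK1 stood at 15.3 and 15.9 CPM untreated and 16.4 and 13.5 CPM with H11. TYK2 stood at 29.6 and 31.2 CPM against 42.1 and 32.5 CPM, and JAK2 at 3.69 and 5.29 CPM against 4.96 and 5.63 CPM, and none of the 3 kinases was called. Of the type I and II receptor chains, 1 of 4 was called (25%, beside 38.8% of all genes tested). This was the interferon gamma chain IFNGR2, which went from 78.6 and 64.0 CPM to 44.4 and 40.2 CPM and fell by 0.75 (SE 0.16, adjusted p 0.00129). The interferon alpha and omega chains IFNAR1 and IFNAR2 had log2 fold changes of 0.17 (SE 0.23) and 0.08 (SE 0.19) and were not called.

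STAT2 and IRF9, which are subunits of ISGF3, both rose. STAT2 went from 35.5 and 28.1 CPM to 135 and 129 CPM, a log2 fold change of 2.05. IRF9, the DNA-binding subunit, went from 4.88 and 3.99 CPM to 108 and 112 CPM, which was 24.8 times the untreated level (log2 4.63, SE 0.16, adjusted p 1.21e-12). All H11 libraries were above all untreated libraries for both genes. IRF7, the factor that drives interferon genes themselves in infected cells, went from 10.2 and 9.28 CPM to 171 and 232 CPM (log2 4.37, SE 0.24). IRF1 rose by a log2 of 1.80. IRF2, its antagonist, had a log2 fold change of 0.47 and was called with all 4 libraries but not with any one of them left out, nor with DESeq2. Over the list of ISGF3 subunits and interferon regulatory factors, 6 of 8 tested genes rose and none fell, with a median of 1.93. STAT3, which other cytokines use, had a log2 fold change of −0.07 (SE 0.15).

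Of the genes that restrain Janus kinase signalling, 1 of 7 tested was called (14.3%, beside 38.8% of all genes tested). This was USP18, the protease that removes ISG15 and blocks the type I receptor, which went from 18.5 and 21.6 CPM to 91.1 and 98.7 CPM (log2 2.24). None of the 6 listed interferon genes had enough reads to be tested.

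The sensors of viral nucleic acid rose in 7 of 7 tested cases, with a median log2 fold change of 4.69, or 4.62 with TLR3 at its bound. DDX58, which encodes the RNA sensor RIG-I, went from 15.4 and 18.4 CPM to 465 and 410 CPM, which was 25.9 times the untreated level. IFIH1, which encodes the sensor MDA5, went from 1.30 and 0.50 CPM to 67.0 and 66.1 CPM (log2 6.21, or 7.02 without untreated replicate 1). DHX58, which encodes their regulator LGP2, reached only 3.13 and 2.65 CPM from 0.33 and 0.40 CPM (log2 2.94). The endosomal sensor TLR3 had no read in either untreated library and 2.26 and 1.66 CPM with H11, at least 12.49-fold higher. The helicases DDX60 and DDX60L rose by 4.99 and 4.62, and ZNFX1 by 2.49.

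The IFIT proteins bind viral RNA and block its translation, and 4 of the 5 listed genes were tested and rose. IFIT1 went from 7.71 and 9.18 CPM to 722 and 637 CPM, 80.5 times the untreated level (log2 6.33, SE 0.16, adjusted p 2.48e-14). IFIT2 went from 0.54 and 0.50 CPM to 60.1 and 62.1 CPM (log2 6.84). IFIT3 had no read in either untreated library and 68.8 CPM in both H11 libraries, at least 440.8-fold higher against a limit of 3 reads over the untreated group. IFIT5 rose by 3.79.

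The OAS enzymes sense double-stranded RNA and start its breakdown. OAS1 went from 0 and 0.50 CPM to 71.5 and 64.4 CPM. With 5 reads in the untreated group its log2 fold change was 7.96, and it was 7.05 without untreated replicate 1 and 12.25 without untreated replicate 2. OAS2 had 2 untreated reads and 44.7 and 31.5 CPM with H11, a ratio of 382.1 with a 95% counting interval of 100.6 to 3015, and its fitted log2 fold change was 7.48 and 11.42 without untreated replicate 1 and replicate 2. OAS3 went from 3.47 and 1.995 CPM to 115 and 102 CPM (log2 5.31, SE 0.20). OASL had no untreated read and was at least 22.81-fold higher. In all, 4 of 5 tested genes of the list rose, with a median of 7.96, or 5.31 with genes on at most 3 untreated reads at their lower bound.

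The IFITM proteins block fusion of viruses with the cell membrane. IFITM1 went from 5.97 and 4.69 CPM to 40.9 and 52.0 CPM (log2 3.13), and IFITM3 from 3.58 and 3.99 CPM to 41.2 and 50.2 CPM (log2 3.59). IFITM2 had a log2 fold change of 1.96, which was 1.49 without untreated replicate 2 and 1.01 without H11 replicate 2, not called in either case, and 2.58 without untreated replicate 1. These 3 of 4 tested genes were called higher. IFITM genes are near-identical in sequence, so how reads were divided among them is uncertain.

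ISG15 is a ubiquitin-like protein that is attached to other proteins. Its RNA went from 19.2 and 17.0 CPM to 544 and 628 CPM, 32.4 times the untreated level (log2 5.02, SE 0.16, adjusted p 4.87e-13). Of its enzymes, the activating enzyme UBA7 rose by 3.67 and the ligases HERC5, HERC6 and TRIM25 by 2.78, 2.41 and 1.85. The conjugating enzyme UBE2L6 went the other way, from 25.3 and 23.9 CPM to 13.6 and 15.5 CPM, and fell by 0.76. So 6 of 7 tested genes of the ISG15 pathway rose and 1 fell.

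In the IFI6, IFI27 and IFI44 families, 4 of 6 genes rose and 1 fell. IFI6, a mitochondrial and endoplasmic reticulum protein, went from 47.5 and 42.0 CPM to 699 and 689 CPM (log2 3.95, SE 0.13). IFI27 went from 0.43 and 0.10 CPM to 13.5 and 18.4 CPM, with a log2 fold change of 5.86 on 5 untreated reads, 7.13 without untreated replicate 1 and 5.15 without untreated replicate 2. IFI44 had no untreated read and 23.3 and 18.6 CPM with H11, at least 133.9-fold higher, and IFI44L was at least 20.64-fold higher. IFI27L2 fell by 2.41, and this call was lost without untreated replicate 1 (−2.26) or H11 replicate 2 (−1.96), while the value was −3.01 without H11 replicate 1.

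Among the other effectors, 6 of 7 genes for ADP-ribosylating enzymes and their partners rose. DTX3L went from 5.21 and 7.28 CPM to 133 and 132 CPM (log2 4.40) and PARP9, with which it shares the promoter site above, from 1.30 and 0.90 CPM to 14.9 and 14.2 CPM (log2 3.72). ZC3HAV1, the antiviral protein ZAP that binds CpG-rich RNA, went from 33.6 and 38.8 CPM to 236 and 203 CPM (log2 2.60). PARP10, PARP12 and PARP14 rose by 2.85, 2.86 and 2.85.

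TRIM proteins are ubiquitin ligases, several of which recognise viral capsids or feed into the sensor pathways. All 8 tested antiviral TRIM genes rose, with a median of 1.94. TRIM22 went from 17.1 and 21.0 CPM to 91.8 and 116 CPM (log2 2.44), TRIM5 from 24.0 and 23.7 CPM to 102 and 92.9 CPM (2.03), and TRIM14 from 26.3 and 29.6 CPM to 102 and 99.8 CPM (1.85). The smallest rises were in TRIM26 (1.20) and TRIM38 (1.25).

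Of 7 tested nuclear body and adaptor genes 6 rose, with a median of 3.28, or 2.50 with genes on at most 3 untreated reads at their lower bound. The nuclear body protein PML went from 20.8 and 18.9 CPM to 141 and 163 CPM (log2 2.94). IFI35 went from 2.17 and 1.90 CPM to 21.7 and 17.9 CPM (3.28), and the DNA sensor IFI16 rose by 2.50. SP110 rose by 4.68, which was 3.77 without untreated replicate 1 and 8.97 without untreated replicate 2. SP100 stayed under 1 CPM in all 4 libraries, and its call was lost without untreated replicate 1, without H11 replicate 2 and with DESeq2.

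Of 8 tested genes of RNA decay, editing and translation control 4 rose and none fell (50% called, beside 38.8% of all genes tested), with a median of 0.94. The kinase EIF2AK2 (PKR), which stops translation, went from 53.4 and 60.9 CPM to 280 and 274 CPM (log2 2.28), and the RNA-editing enzyme ADAR went from 167 and 132 CPM to 381 and 344 CPM (1.28). PNPT1, a mitochondrial RNA-degrading enzyme, rose by 1.83 and C19orf66 (shiftless), which blocks viral frameshifting, by 2.98. The exonuclease gene ISG20, at 2.06 and 1.30 CPM untreated and 1.39 and 1.57 CPM with H11, was not called.

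The nucleotide enzymes moved in both directions, with 3 of 8 tested genes higher and 2 lower (62.5% called, beside 38.8% of all genes tested). RSAD2, which encodes viperin, had 2 untreated reads and 33.4 and 22.2 CPM with H11, a ratio of 266.8 with a counting interval of 73.24 to 2198. CMPK2, its neighbour in the genome, also had 2 untreated reads and 49.4 and 51.6 CPM with H11, a ratio of 506.4 with an interval of 134.1 to 4015. Its fitted log2 fold change was 7.89 without untreated replicate 1 and 11.82 without untreated replicate 2. SAMHD1, which depletes deoxynucleotides, went from 14 and 17.05 CPM to 60.9 and 56.7 CPM (log2 1.92). TYMP, thymidine phosphorylase, and the cytidine deaminase APOBEC3C fell by 1.64 and 0.99, and APOBEC3B, APOBEC3F and APOBEC3G were not called.

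Of 11 tested lipid and membrane effectors 8 rose and none fell, with a median of 3.79, or 1.75 with genes on at most 3 untreated reads at their lower bound. HELZ2, a nuclear coactivator helicase, went from 4.23 and 5.38 CPM to 62.1 and 72.1 CPM (log2 3.79), and the scramblase PLSCR1 from 33.3 and 26.4 CPM to 217 and 196 CPM (2.79). BST2, the tether that holds virus particles on the cell, went from 201 and 259 CPM to 464 and 404 CPM and rose by 0.92. SAMD9 had 2 untreated reads and 18.6 and 16.3 CPM with H11, a ratio of 160.8 with a counting interval of 46.06 to 1387. Its fitted log2 fold change was 10.30 without untreated replicate 1 and 6.24 without untreated replicate 2. XAF1 and APOL1 had no untreated read and were at least 10.05-fold and 4.617-fold higher. Of the large GTPases 1 of 3 tested was called (33.3%, beside 38.8% of all genes tested). This was GBP1, whose call was lost without either untreated library or without H11 replicate 2. MX1, a classic interferon marker, had 0.76 and 0.20 CPM untreated and 0.70 and 0.74 CPM with H11 and was not called.

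**Figure D2:**
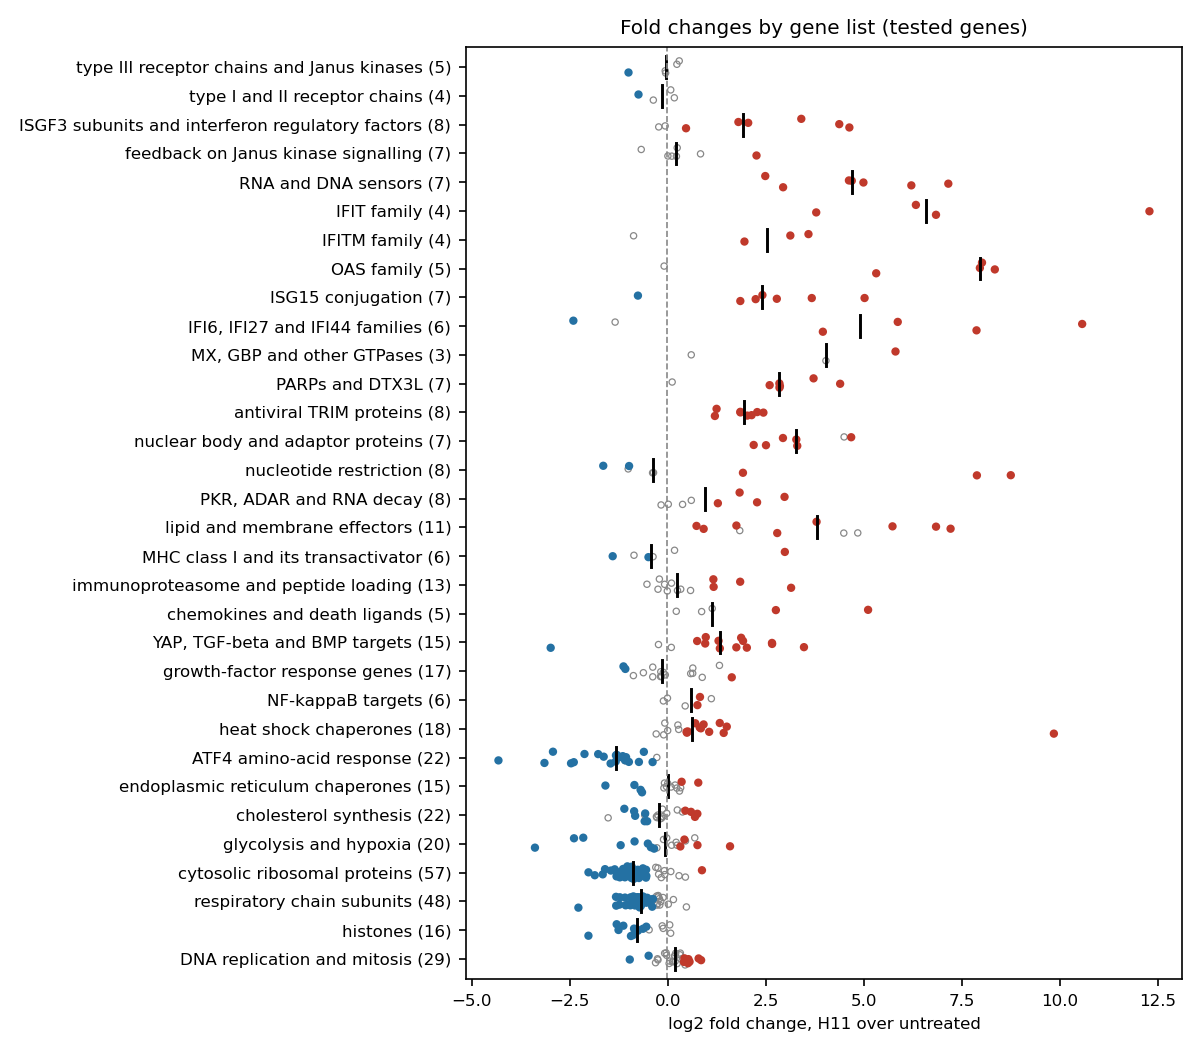
Log2 fold change of H11 over untreated wild-type receptor cells for each tested gene of the lists named on the left, with the number tested in brackets, filled points for called genes (red higher, blue lower), open points for genes not called and a bar at the list's median. The sensor, IFIT and OAS lists have medians of 4.69, 6.58 and 7.96 (5.31 for OAS at the lower bounds), whereas the ATF4, ribosomal protein and respiratory chain lists have medians of −1.31, −0.87 and −0.69. The points farthest to the right (IFIT3, IFI44 and CRYAB) had no untreated read, and their position depends on the prior count of the fit.

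Genes of antigen presentation did not follow the antiviral effectors. HLA-B went from 136 and 133 CPM to 89.1 and 102 CPM. Its log2 fold change of −0.49 was called with all 4 libraries but not with any one left out, nor with length in the fit. B2M, the common light chain of class I molecules, stood at 518 and 573 CPM untreated and 415 and 426 CPM with H11 (log2 −0.37, SE 0.21, adjusted p 0.176, and −0.04 with length in the fit). NLRC5, the transactivator of these genes, nevertheless went from 6.19 and 8.98 CPM to 57.2 and 63.5 CPM (log2 2.99). Over the list, 1 of 6 tested genes rose and 2 fell (50% called, beside 38.8% of all genes tested), with a median of −0.43. Class I genes are near-identical in sequence, so their separate levels are uncertain.

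In the peptide supply some genes rose and the others were not called. The transporter TAP1 went from 45.8 and 49.9 CPM to 105 and 109 CPM (log2 1.16, SE 0.12) and its partner TAP2 rose by 1.17. The loading factor TAPBP rose by 1.85, a value that was 1.33 and not called without untreated replicate 1 and 2.71 without untreated replicate 2. The trimming enzyme ERAP2 rose by 3.15. The immunoproteasome subunits PSMB8, at 63.6 and 74.3 CPM untreated and 56.9 and 59.2 CPM with H11, and PSMB9, at 12.4 and 13.2 CPM against 10.4 and 15.0 CPM, were not called. In all, 4 of 13 genes rose and none fell, with a median of 0.25, and with length in the fit 6 rose. The share called as counted was 30.8%, beside 38.8% of all genes tested. Of 5 tested chemokines and death ligands, TNFSF10 (TRAIL) rose by 2.76, and CXCL10 had no read in 3 of the 4 libraries and 0.91 CPM in H11 replicate 2, a call lost without that library or without either untreated library.

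Outside the interferon lists, most listed targets of YAP, TGF-beta and BMP signalling, pathways that answer to cell contact and growth factors, rose. Of 15 tested, 12 rose and 1 fell (86.7% called, beside 38.8% of all genes tested), with a median of 1.33 (1.58 with length in the fit). This list, like the others, was chosen with earlier results of these data known. The matricellular gene CYR61 went from 19.1 and 19.7 CPM to 214 and 216 CPM (log2 3.47, SE 0.15), and CTGF from 2.61 and 3.19 CPM to 18.4 and 18.5 CPM (log2 2.66). ID1, an inhibitor of differentiation factors and a target of BMP signals, went from 20.8 and 24.3 CPM to 143 and 143 CPM (log2 2.66). ID2 and ID3 rose by 2.02 and 1.30, and the inhibitory SMAD6 and SMAD7 by 1.92 and 1.75. The member that fell, the receptor kinase AXL (log2 −2.98), lost its call without untreated replicate 1 (−1.86) or without either H11 library (−3.53 and −2.57). In the promoters of the called members the response-element motif was in 1 of 15 windows.

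Other large rises lay outside the pathways above. PI15, a secreted protein of the CAP family, went from 0.43 and 0.30 CPM to 21.0 and 25.7 CPM (log2 5.95, SE 0.33). The small heat shock protein CRYAB had no untreated read and 9.74 and 15.6 CPM with H11, at least 81.75-fold higher. IL7R, the receptor of interleukin 7, had 1 untreated read and 6.26 and 5.46 CPM with H11, a ratio of 108.0 with a counting interval of 19.85 to 4473, and a fitted log2 fold change of 8.73 and 5.58 without untreated replicate 1 and replicate 2. NEAT1, the long non-coding RNA of paraspeckles, went from 95.3 and 113 CPM to 570 and 632 CPM (log2 2.53, SE 0.17).

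Heat shock chaperones, CRYAB among them, rose in 12 of 18 tested cases, with a median of 0.61 and none lower. DNAJA1 went from 196 and 210 CPM to 556 and 594 CPM (log2 1.51), and HSPA1A and HSPH1 rose by 1.43 and 1.33. The constitutive chaperone HSPA8 went from 792 and 734 CPM to 1393 and 1347 CPM (0.84). HSPA1A has a near-identical copy, so its level is uncertain. Chaperones of the endoplasmic reticulum showed no such shift, with 2 of 15 higher, 4 lower and a median of 0.00. Of these 40% were called, beside 38.8% of all genes tested.

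The ATF4 amino-acid response, a programme of amino-acid import and synthesis genes, fell in 20 of 22 tested genes and rose in none, with a median log2 fold change of −1.31, and with length in the fit 21 fell. ATF4 itself went from 1003 and 910 CPM to 463 and 437 CPM and fell by 1.09 (SE 0.13). The mTOR inhibitor gene DDIT4 went from 117 and 110 CPM to 11.5 and 14.2 CPM and fell by 3.14 (SE 0.19, adjusted p 1.37e-09). CHAC1, which breaks down glutathione, went from 109 and 102 CPM to 12.8 and 14.9 CPM and fell by 2.93. INHBE, an activin chain, went from 16.1 and 13.2 CPM to 0.61 and 0.83 CPM and fell by 4.32. Asparagine synthetase, ASNS, went from 411 and 383 CPM to 119 and 114 CPM and fell by 1.77. DDIT3 and SLC7A1 had log2 fold changes of −1.08 and −0.28 and were not called. The response-element motif was in none of the 24 windows of called members.

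Most of the largest falls lay outside that list. CAPN6, a calpain-like protein, went from 14.2 and 22.9 CPM to 0.87 and 0.25 CPM and fell by 5.04, or by 6.15 and 4.40 without H11 replicate 1 and without H11 replicate 2. The neuronal transcription factor NEUROG2 went from 20.2 and 17.2 CPM to 1.04 and 1.32 CPM and fell by 3.96. TXNIP, which restrains glucose uptake, went from 75.9 and 66.02 CPM to 6.17 and 7.36 CPM and fell by 3.39 (SE 0.18). NELL1, a secreted protein of bone growth, went from 17.47 and 19.95 CPM to 1.91 and 1.49 CPM and fell by 3.45. The steroid sulfotransferase gene SULT2B1 went from 6.62 and 5.38 CPM to 0.26 and 0.58 CPM and fell by 3.78, or by 4.45 without H11 replicate 2. FLJ35024, CLEC2L and ECHDC3 fell by 3.53, 3.46 and 3.15, and ECHDC3 by 3.79 without H11 replicate 2. FGF19 fell by 4.21, which was 5.00 without H11 replicate 1 and 3.34 without untreated replicate 2.

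Of 20 tested genes of glycolysis and hypoxia 4 rose and 8 fell (60% called, beside 38.8% of all genes tested), with a median of −0.07. TXNIP belongs to this list, as does its relative ARRDC4, which went from 10.5 and 8.08 CPM to 2.09 and 2.07 CPM and fell by 2.15. The growth factor VEGFA went from 64.1 and 85.4 CPM to 29.8 and 35.2 CPM and fell by 1.20, and NDRG1 fell by 2.39. Adrenomedullin, ADM, a hypoxia-induced peptide hormone, rose from 16.7 and 15.2 CPM to 46.5 and 49.3 CPM (log2 1.59), and hexokinase HK2 rose by 0.76.

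Of 22 cholesterol synthesis genes 4 rose and 6 fell, with a median of −0.22. The share called was 45.5%, beside 38.8% of all genes tested. HMGCS1, an early enzyme of the pathway, went from 102 and 111 CPM to 157 and 166 CPM (0.59). The retention factor INSIG1 went from 20.9 and 21.9 CPM to 9.83 and 13.8 CPM and fell by 0.86, and SREBF2, which drives the pathway, fell by 0.57. Of 29 genes of DNA replication and mitosis 8 rose and 2 fell (34.5% called, beside the same 38.8%), with a median of 0.19. CDK1, the mitotic kinase, went from 566 and 634 CPM to 308 and 305 CPM and fell by 0.97, while CCNE1 and RRM2 rose by 0.79 and 0.52.

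Of 6 tested NF-kappaB targets 2 rose, the inhibitor NFKBIA from 27.1 and 31.5 CPM to 49.22 and 49.97 CPM (0.76) and NFKB1 (0.82), whose call was lost without untreated replicate 2 or H11 replicate 2. Of 17 growth-factor response genes 1 rose and 2 fell (DUSP6, DUSP4 and EGR1), and each of these calls was lost without H11 replicate 1, among other libraries. The shares called were 33.3% of the NF-kappaB list and 17.6% of the growth-factor list, beside 38.8% of all genes tested.

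Genes for short, abundant transcripts fell in large numbers. Of 57 cytosolic ribosomal protein genes 47 fell and 1 rose, with a median of −0.87. RPS29 went from 92.4 and 82.8 CPM to 20.9 and 22.3 CPM and fell by 2.02, whereas RPS14 went from 74.7 and 68.8 CPM to 136 and 127 CPM and rose by 0.87. Of 48 respiratory chain genes 36 fell and none rose, with a median of −0.69. Of 16 tested histone genes 11 fell, among them HIST1H4C, which went from 4807 and 5182 CPM to 1133 and 1327 CPM. With length in the fit, 42 ribosomal protein genes, 22 respiratory chain genes and 9 histone genes fell, with medians of −0.57, −0.39 and −0.53. Ribosomal protein and histone genes have near-identical copies, so their separate levels are uncertain.

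Over all genes with a known length, the response to H11 moved with it. The 1214 genes with the shortest transcripts, 83 to 1114 nt, had a median log2 fold change of −0.42, with 133 higher and 543 lower. The longest, from 6357 nt, had a median of 0.33, with 420 higher and 88 lower. With length in the fit these medians were −0.11 and 0.01, and 2021 genes were higher and 2361 lower. The interferon-response lists were little moved, with 78 genes higher and 5 lower in that fit.

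**Figure D3:**
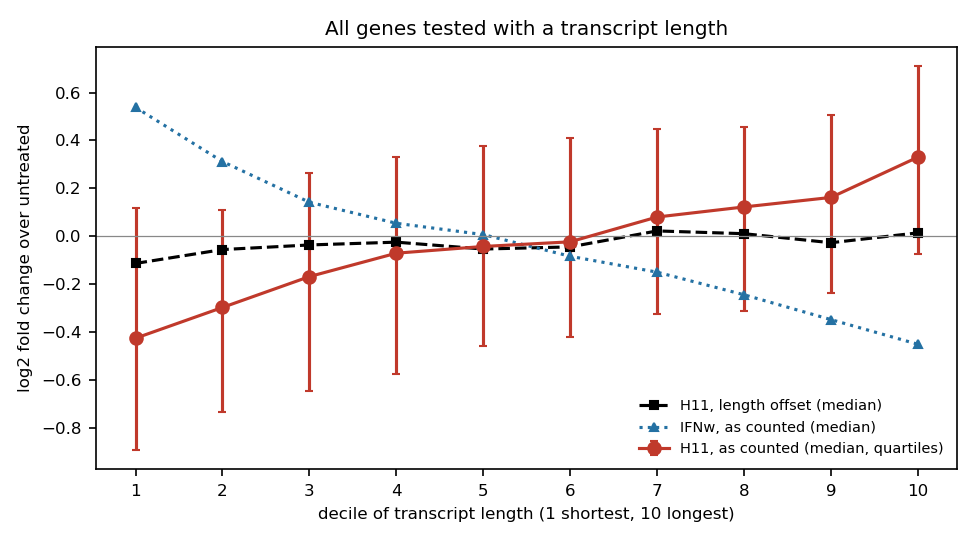
Log2 fold change over untreated wild-type cells in 10 groups of genes ordered by transcript length, with circles for the H11 median as counted (bars are quartiles), squares for H11 with length in the fit and triangles for interferon omega as counted. The H11 medians climb from −0.42 in the shortest group to 0.33 in the longest, those with length in the fit lie between −0.11 and 0.02, and the interferon omega medians go from 0.54 in the shortest group to −0.45 in the longest.

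Markers were used to check the labelled cell type. The 10 listed neurofilament and kidney-lineage genes known from HEK293, VIM and CDH2 among them, summed to 617 and 601 CPM untreated and 677 and 648 CPM with H11. A sum does not show which members made it up. Of the 7 tested, 3 rose (42.9% called, beside 38.8% of all genes tested). In all 4 libraries 3 of the 10 were under 1 CPM, and the neurofilament gene NEFM had 0 reads. None of the blood cell, hepatocyte and keratinocyte markers had enough reads to be tested. Untreated, the fibroblast markers summed to 18.88 and 18.65 CPM, the intestinal markers to 8.36 and 9.97 CPM and the endothelial markers to 3.58 and 3.49 CPM. Of the fibroblast and intestinal markers COL1A1, CDX2 and LGALS4 were tested and not called, though CDX2 was called lower with length in the fit. The endothelial marker ESAM fell by 1.31, a call lost without H11 replicate 1 (−0.88), without either untreated library, with DESeq2 and with length in the fit.

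H11 was next set against IFNL3 in the same wild-type cells, a comparison of the high-affinity form with the ligand it is named after. No gene was called (0% of 12704, edgeR's quasi-likelihood test, smallest adjusted p 1), and DESeq2 called 0. An unadjusted p under 0.05 was seen for 158 genes (1.244%), a smaller share than that threshold gives where nothing differs. The spread was pooled over all 8 groups, among them the untreated optimized pair, whose replicates differed most. With the compared groups alone 0 genes were called. Of 9940 genes at 5 CPM or more in either group, 9607 (96.65%) had a 95% interval of the difference within 2-fold. In the interferon-response lists 85 of 89 genes at that level did. At any level, 90 of 122 tested genes of these lists did (73.77%), against 79.94% of all genes tested. ISG15 had means of 586 CPM with H11 and 558 CPM with IFNL3, IFIT1 680 and 723 CPM, and IRF9 110 CPM with both. Outside the interferon lists, CYR61 had means of 215 and 227 CPM and NEAT1 601 and 572 CPM. Against the same untreated libraries, IFNL3 gave 2370 genes higher and 2677 lower (39.7% called).

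**Figure D4:**
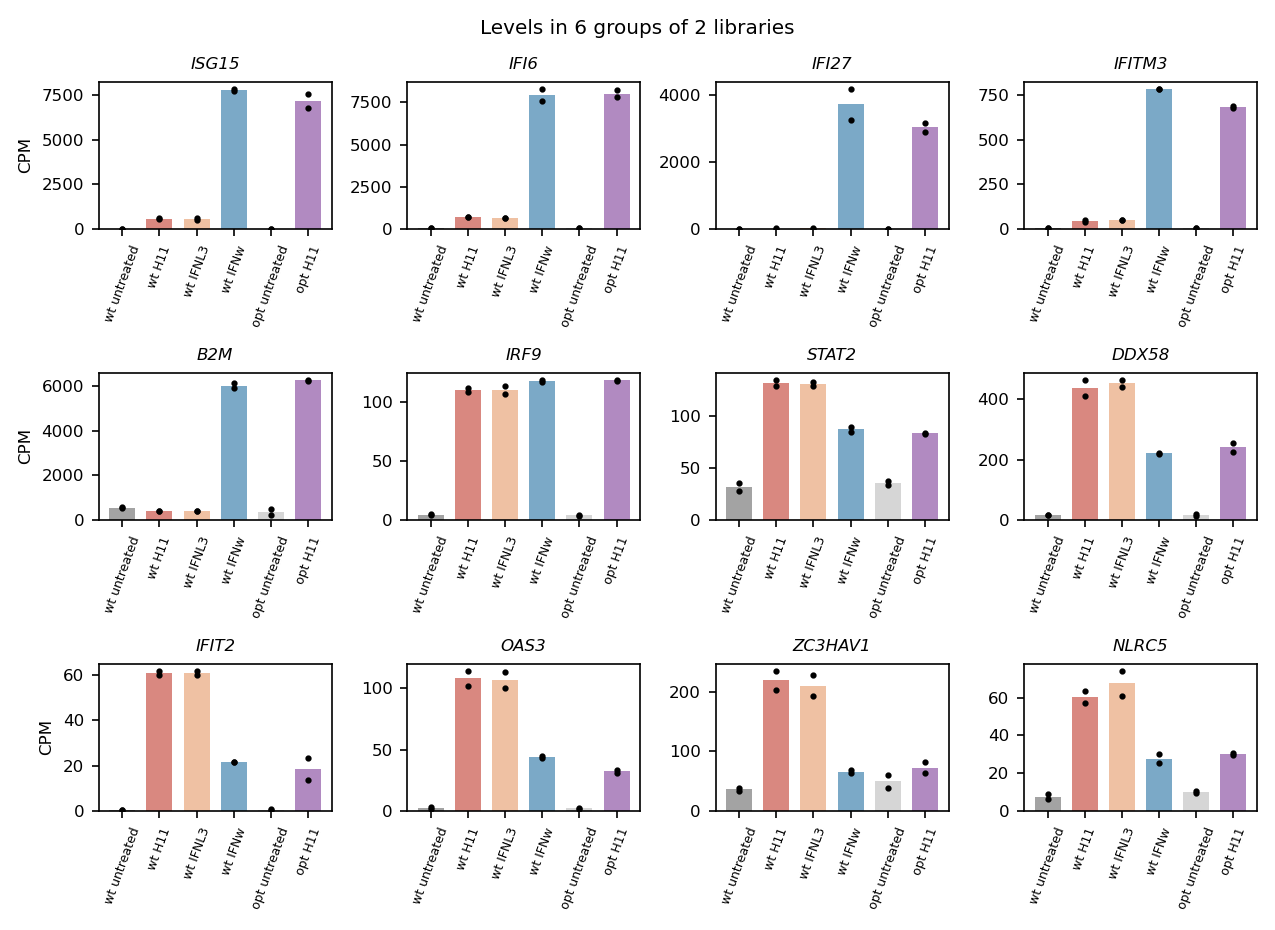
Levels of 12 interferon genes in 6 groups, with bars for the group mean CPM, axes starting at 0, and points for the 2 libraries of each group (wt is wild-type and opt is optimized receptors). Bars of H11 and IFNL3 in wild-type cells have like heights for each gene, ISG15 is at a mean of 586 CPM with H11 and 7781 CPM with interferon omega, and OAS3 is at 108 and 44.0 CPM. Of 5 tested genes of the OAS list 1 was higher with H11 than with interferon omega and 3 were lower.

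Interferon omega, a type I interferon, gave a different balance of genes from H11 in the same cells. Against the same untreated libraries it gave 2109 genes higher and 1879 lower (31.4% called). Between the ligands 52.2% of genes were called, 3373 higher with H11 (26.6%) and 3259 lower (25.7%). Of the interferon-response lists 21 of 122 were higher with H11 and 58 lower, with a median log2 difference of −0.55 against 0.05 over all genes. The length fit gave 15 higher and 57 lower. IRF9 did not pass the test, with means of 110 and 117 CPM (difference −0.09, SE 0.12). IFIT3 was at 68.8 CPM with H11 and 78.5 CPM with interferon omega (difference −0.19, SE 0.13) and was not called either.

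Many effectors were lower with H11: 3 of 4 IFITM genes, 6 of 6 genes of the IFI6, IFI27 and IFI44 families and 5 of 7 genes of ISG15 conjugation, against none, none and 2 higher. ISG15 was at 586 CPM with H11 and 7781 CPM with interferon omega (difference −3.73, SE 0.14), and IFI6 at 694 and 7946 CPM (−3.52). IFI27 was at 15.9 and 3731 CPM (−7.87), IFITM1 at 46.5 and 788 CPM (−4.08) and IFITM3 at 45.7 and 785 CPM (−4.10). IFIT1 was at 680 and 2015 CPM (−1.57). Antigen presentation showed the same direction: B2M was at 420 CPM with H11 and 6007 CPM with interferon omega (−3.84), PSMB9 at 12.7 and 344 CPM (−4.76), PSMB8 at 58.1 and 592 CPM (−3.35) and TAP1 at 107 and 338 CPM (−1.66). Of 13 immunoproteasome and loading genes 8 were lower with H11 and none higher. With length in the fit the differences of the shorter of these transcripts were smaller and still called: −2.84 for ISG15, −2.68 for IFI6, −6.99 for IFI27, −3.26 for IFITM1 and for IFITM3, −3.05 for B2M, −3.91 for PSMB9 and −2.71 for PSMB8. Those of the longer IFIT1 and TAP1 were slightly larger, at −1.68 and −1.73. In that fit 5 genes of the IFI6, IFI27 and IFI44 families were lower and none higher, and for ISG15 conjugation 5 were lower and 1 higher.

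Other interferon genes were higher with H11, from lists that were divided. Of 7 sensor genes 3 were higher and 2 lower, of 7 PARP genes 3 and 1, and of 8 TRIM genes 3 and 1, beside 26.6% of all genes higher and 25.7% lower. In the length fit the sensors had 1 higher and 2 lower, the PARP genes 2 and 1, and the TRIM genes 3 and 2. DDX58 was at 437 CPM with H11 and 221 CPM with interferon omega (difference 0.98), OAS3 at 108 and 44.0 CPM (1.30) and IFIT2 at 61.1 and 21.6 CPM (1.497). OAS3 and IFIT2 went against most called members of their lists. Of 5 tested genes of the OAS list 1 was higher and 3 lower, namely OAS1 (−2.59), OAS2 (−1.945) and OASL (−2.45). Of 4 tested IFIT genes 1 was higher and 2 lower. ZC3HAV1 was at 220 and 66.3 CPM (1.73), PML at 152 and 67.4 CPM (1.17), TRIM56 at 13.0 and 3.49 CPM (1.89) and the transactivator NLRC5 at 60.3 and 27.7 CPM (1.12). Of 7 tested nuclear body and adaptor genes, PML among them, 1 was higher and 3 lower. In the class I list, which holds NLRC5, 1 of 6 was higher and 5 lower. The length fit gave the same counts for the OAS, IFIT, nuclear body and class I lists. STAT2 was at 132 and 87.0 CPM (0.60). The length fit gave 0.68 for OAS3, 1.04 for TRIM56 and 0.50 for NLRC5, each still called. Among the listed targets of YAP, TGF-beta and BMP, 13 of 15 were higher with H11, CYR61 at 215 against 29.1 CPM (2.89).

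The H11 minus interferon omega difference of an interferon gene moved with its transcript length. For 97 interferon genes at 5 CPM or more with either ligand, Spearman's rho between length and the H11 minus interferon omega difference was 0.689 and Pearson's r with log length 0.721, a description across genes that share the same 4 libraries. Among the 49 shorter genes (511 to 2938 nt) 2 were higher with H11 and 35 lower, with a median of −1.86. Among the 48 longer genes (2959 to 10952 nt) 19 were higher and 12 lower, with a median of 0.32. With length in the fit over all genes, the correlation was 0.490, and the shorter genes had 3 higher and 32 lower (median −1.26) against 12 higher and 16 lower among the longer (median −0.02). Correlation and medians were therefore smaller, and the order of shorter and longer genes the same, once the trend of all genes was taken out.

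**Figure D5:**
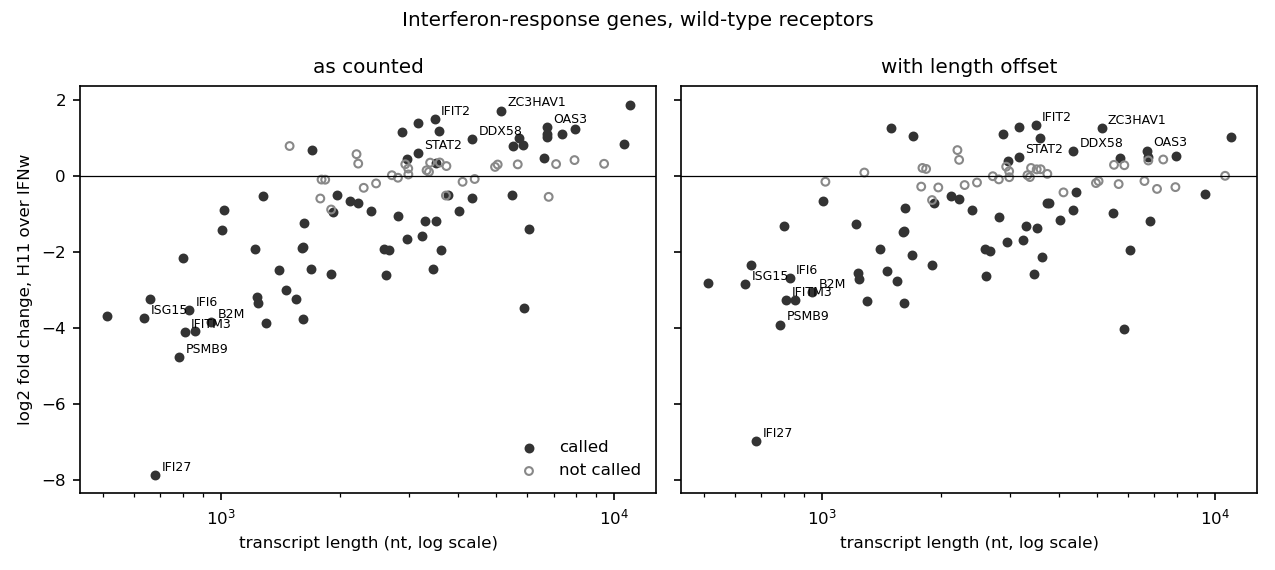
Log2 fold change of H11 over interferon omega in wild-type cells against transcript length (nt, log axis) for 97 interferon-response genes, as counted on the left and with the length offset on the right, filled where called. On the left the 49 shorter genes lie mostly below 0, with a median of −1.86, and the 48 longer have a median of 0.32.

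The wild-type response was last compared with that of cells with optimized receptors, as a difference of differences from each genotype's own untreated libraries. Against their own untreated libraries, optimized cells given H11 had 2185 genes higher and 1931 lower (32.4% called). One of these libraries, untreated optimized replicate 2, stood apart: it held 5331203 reads, it lay at −42.3 on the third principal component against 19.5 for replicate 1, and the pair's chi-square per degree of freedom was 26.06, against 6.58 to 9.86 in the other groups. Without it, 1959 genes were higher and 1627 lower in optimized cells. The response to H11 differed in 36.9% of genes, 2480 higher (19.5%) and 2210 lower (17.4%) with optimized receptors, and without that library 2493 were higher and 2258 lower. Of the interferon-response lists 41 of 122 were higher with optimized receptors and 14 lower, with a median of 0.76 against −0.02 over all genes. Without that library 40 were higher and 12 lower, and with length in the fit 36 and 7. ISG15 went from 15.2 to 7143 CPM with H11 in optimized cells, against 18.1 to 586 CPM in wild-type cells (difference 3.83, SE 0.20, 3.65 without that library and 2.97 with length in the fit). B2M went from 347 to 6247 CPM, against 545 to 420 CPM (4.54, SE 0.31, 4.09 without that library and 3.77 with length in the fit). IRF9, with 4.02 to 118 CPM against 4.44 to 110 CPM, had a difference of 0.27 (SE 0.24) and was not called. DDX58 went the other way, with 17.4 to 240 CPM in optimized cells against 16.9 to 437 CPM (−0.89), as did OAS3 (−1.44) and IFIT2 (−2.003). Without that library these were −0.67, −1.26 and −2.35, all called. In the length fit DDX58 was called at −0.57, and OAS3 (−0.85) and IFIT2 (−1.85) were not. Outside the interferon lists, 51 of 57 ribosomal protein genes had a higher response with optimized receptors and none lower, with a median of 1.19. Without that library 50 were higher, and with length in the fit 29 higher and 1 lower, with a median of 0.54. Of 15 targets of YAP, TGF-beta and BMP, 9 had a lower response and 1 a higher one, and 10 and 1 either without that library or with length in the fit.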

How the data were processed

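The authors deposited 1 file a library with raw counts, whole numbers of reads per target, per the file headers. The submitters' processing notes name the build hg19. Aligner, counter and use of strand: not given in the sources used here. Total RNA was purified and made into Ion 540 or 550 libraries, per the labels' protocols. Of 20812 targets, 10 spike-ins were left out. Of 28 gene symbols that had become dates, 27 were renamed from their Entrez identifier. Counts of all 16 libraries were fitted together in edgeR 4.0.16 (R 4.3.3) with a coefficient per group, filterByExpr, TMM scaling and the quasi-likelihood test, which pools the spread of all groups (biological coefficient of variation 13.26%, 8 residual degrees of freedom). Genes were called at an adjusted p (Benjamini-Hochberg, 12704 genes tested) under 0.05. Replicates differed by more than sampling noise (chi-square per degree of freedom 8.52 and 9.86 in these groups, 6.58 to 26.06 over all), so none was merged. CPM are those scaled counts. A group with no read was given a limit of 3 reads, and intervals cover counting error only, since reads were not collapsed by molecule. The gene's transcript length was the median over its GENCODE transcripts and need not be the length counted. Transcripts paired with a RefSeq record were used where there were any, then protein-coding ones, then all. Motif sequences came from RefSeq promoters.

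The members and the 40 gene lists (515 entries, 513 matched) were chosen with earlier results of these data known. Genes were named from a set. It held the listed members and, in each comparison, the 10 genes in each direction with the largest change among called genes at 5 CPM or more. Libraries of these did not overlap, a condition dropped for the difference of responses. Only some of that ranking is given for H11 against interferon omega, mostly members of the interferon lists. The alternatives were DESeq2 1.42.0, its size factors, no low-count filter, a replicate block, the compared groups alone, a transcript length offset, each library left out, and a longer motif. Where 1 library of a group was left out, the library that stayed was taken to vary as much as the other groups did. The fitting script was tested on simulated counts.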

Additional observations from a re-analysis of the deposited data

Results flagged for a closer look

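The response to H11 differed between the receptor genotypes in 4690 genes by a test of the difference itself, and none of the values below is explained here. Large differences in favour of optimized receptors, as log2 values, were seen for DHX58 (7.48), IFI27 (6.47), CARD16 (5.34), B2M (4.54), OMG (4.45), IFITM1 (4.23), IFI27L2 (4.197), SULT2B1 (4.14) and HIST1H3C (4.02). DHX58 had no read in untreated optimized cells, so its value depends on the prior count of the fit and is no bound. With wild-type receptors its mean was 0.36 CPM untreated and 2.89 CPM with H11, and with optimized receptors 0 and 18.99 CPM. CARD16, a caspase-inhibitor-like gene, had means of 1.28 CPM untreated and 0.85 CPM with H11 in the wild-type genotype, and of 0.50 and 12.5 CPM in the optimized one.

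The 10 largest differences in favour of wild-type receptors were IL7R (−10.80), CRYAB (−9.77), PI15 (−5.90), TAS2R13 (−4.85), DNAJC15 (−4.63), GADL1 (−4.26), NEAT1 (−3.60), LOC90834 (−3.56), ENPP2 (−3.56) and CXCL14 (−3.44). IL7R had no read in optimized cells with H11 and CRYAB none in untreated wild-type cells, so these values are no bounds either. PI15 went from a mean of 0.37 CPM to 23.4 CPM with H11 where receptors were wild-type, and stood at 0.42 and 0.40 CPM where they were optimized. NEAT1 went from 104 to 601 CPM and from 112 to 53.1 CPM in the same order.

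Untreated optimized replicate 2 stood apart from its pair, and without it the difference for ENPP2 was −2.74 and not called, for IL7R −9.58 and for CRYAB −10.44. The other genes above stayed called without it. With length in the fit all of them stayed called, and the differences were 5.61 for IFI27, 4.49 for CARD16, 3.77 for B2M, 3.42 for IFITM1, 3.35 for IFI27L2, 3.21 for HIST1H3C, −2.78 for NEAT1, −3.96 for DNAJC15, −5.31 for PI15 and −10.57 for CRYAB.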

How the results depend on the processing

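The counts of called genes in the main comparison stayed within 1.5 times under each alternative. Genes higher and lower were 2047 and 2367 with DESeq2, 2655 and 2772 with the compared groups alone, 2021 and 2361 with the length offset, and 1548 to 1607 and 1875 to 1992 with each library left out. With the replicate block they were 2678 and 2980. The labels do not say that a replicate number marks a shared batch or day, so the block was not the main fit. Differences between replicates 1 and 2 correlated at 0.1091 between H11 and untreated cells and at 0.0846 to 0.2115, all positive, over 28 pairs of groups. On the third principal component replicate 1 lay above replicate 2 in each of the 8 groups, so some deviation was shared by number. Of the set that genes were named from, 15 gained a call with the block and 0 lost one. In that set, 33 lost their call with the length offset, 12 with DESeq2 and 30 to 41 with a library left out. Without the low-count filter 1 gene was called between H11 and IFNL3. With the motif lengthened by a C after its last A, the share was 0.795% over all windows searched and 1.85% for genes that rose. It was 0.445% for genes that fell, 0.764% for genes not called and 36.8% for interferon-list genes that rose. A longer motif matches less often by construction. The number of replicates, 2 per group, limits precision, and fold changes on few untreated reads, such as those of OAS1, OAS2, CMPK2 and SAMD9, moved with the untreated library left out.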
